A study of Mus musculus with 20 samples.

Results

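The 26S proteasome genes of mouse embryo fibroblasts were followed after Cre was activated in cells with floxed alleles of the gene for UBF, the HMG-box factor that acts with RNA polymerase I on the ribosomal RNA genes. The genes were taken by symbol: those that begin with Psma, Psmb, Psmc, Psmd, Psme or Psmg and a digit, without Psmb8, Psmb9 and Psmb10 of the immunoproteasome and without pseudogenes. This gave 46 of the 19938 genes that had a probe set with a single symbol, and each was read through the probe set with its highest mean over the 20 arrays. The 46 held 8 alpha and 8 beta ring subunits of the core, 6 ATPases and 11 non-ATPases of the regulatory particle, 7 assembly chaperones and 4 activators. The remaining 2, Psmc3ip and Psme3ip1, share the letters but are not subunits: Psmc3ip is a cofactor of meiotic recombination and Psme3ip1 binds the activator encoded by Psme3.

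Each of 4 lines was sampled at 0, 24, 48, 72 and 96 h after exposure to 4-hydroxytamoxifen (4-HT, 50 nM for 4 h), with 1 array per line and time: Ubf fl/fl iMEFs, Ubf wt/wt iMEFs, Ubf fl/fl MEFs and Ubf wt/wt MEFs. MEFs are primary fibroblasts from E14.5 embryos and iMEFs are such cells immortalized with the SV40 T and t antigens. All 4 lines were homozygous for ER-Cre, the recombinase that 4-HT activates, so that the wt/wt lines received Cre activity but carried no floxed Ubf. Each genotype and cell type was represented by a single line, so a feature of that line cannot be told apart from its genotype or its immortalization.

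The proteasome degrades proteins marked with ubiquitin. Its core is a barrel of alpha rings, which form the gate, and beta rings, which hold the proteolytic sites; the regulatory particle binds the substrate, removes its ubiquitin and threads it into the core by means of a ring of ATPases. Other caps, the PA28 complexes and PA200, open the same gate without ATP. The chaperones help to build the core and the ATPase ring and leave the finished particle.

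The 100 bases before the annotated transcription start are given for 4 of these genes, from RefSeq sequence on GRCm38.p6, because they represent the main patterns described below. Psme4 (chr11:30771675-30771774, plus strand) and Psmd6 (chr14:14120946-14121045, minus strand) were lower in iMEFs than in MEFs. Psme1 (chr14:55578394-55578493, plus strand) was higher in iMEFs. Its mean there was higher over the late times (48, 72 and 96 h) than over the early ones (0 and 24 h). This came mainly from 48 and 72 h, and the call depended on scaling and on the arrays used. Psmb5 (chr14:54617996-54618095, minus strand), which encodes a catalytic subunit, did not pass the test in any comparison. Capitals mark TGANNNNGC, the core of the antioxidant response element, which begins at base -47 from the start of Psmb5 and is not whole in the other 3 stretches.
Psme4: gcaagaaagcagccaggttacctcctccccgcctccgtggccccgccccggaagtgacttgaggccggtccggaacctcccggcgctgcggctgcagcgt
Psmd6: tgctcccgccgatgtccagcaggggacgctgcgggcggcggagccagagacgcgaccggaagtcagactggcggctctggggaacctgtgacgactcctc
Psme1: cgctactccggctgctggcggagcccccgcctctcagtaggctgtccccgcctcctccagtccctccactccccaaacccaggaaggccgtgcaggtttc
Psmb5: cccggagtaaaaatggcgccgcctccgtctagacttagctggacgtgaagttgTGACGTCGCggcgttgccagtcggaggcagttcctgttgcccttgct
Over 300-base windows, of which 250 lie before the start, 38 of the 46 genes had at least 1 window and 42 windows in all. Each motif was sought on both strands. TGANNNNGC was present in 25 of these 42 windows (59.5%) and in 41.3% of the 32817 windows of all genes. CCAAT was found in 35.7% of the members' windows and in 37.4% of all windows. The core of the interferon-stimulated response element, written as GAAA, any 2 bases and GAAA, was found in 5 windows (11.9%, against 3.43% of all windows), those of Psmb3, Psmd4, Psmd9, Psme1 and Psmg4. In Psme1 it began at base 10 of the transcript and in Psmd4 at base -80. TTCNNNGAA, the core of the gamma-activated site, was found in 4.76% of the members' windows and in 8.29% of all windows. In Psme4, TGANNNNGC on the minus strand began at base -7 and ran past the start. A match is one of letters only.

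Signal is given as log2 of the normalized intensity, and probe sets of different genes are not compared in level. Of the 46 genes, 44 lay above the 40th percentile of their array's probe sets on all 20 arrays and entered the tests with 15272 genes in all. The other 2 did not pass it on any array: Psma8, the testis form of an alpha subunit, lay between 5.10 and 5.82 in iMEFs and between 4.97 and 5.36 in MEFs, and Psmb11, the thymus form of a catalytic beta subunit, lay between 5.79 and 6.22 in iMEFs and between 5.65 and 6.18 in MEFs.

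Fibroblast markers were present throughout: 10 to 11 of 12 were over the 40th percentile in iMEFs, where Lum was under it on all arrays, and 12 of 12 in MEFs. Of the 12, 11 were lower in iMEFs (91.7%, against 31.2% of all genes). Macrophage markers were over the 40th percentile for 7 to 11 of 16 genes in iMEFs, with a summed signal of 1380 to 2610. In MEFs 15 to 16 of 16 were over it, with a summed signal of 9980 to 29700. All 16 were lower in iMEFs, against 31.2% of all genes. Lyz2, Adgre1, Ptprc and Mrc1 were under the 40th percentile on every iMEF array. Endothelial markers were over it for 2 to 4 of 7 genes and epithelial ones for 5 to 6 of 7 in both cell types. Ubtf, which encodes UBF, did not fall in the Ubf fl/fl lines relative to the wt/wt lines by the probe set used (late effect 0.13 ± 0.182 in iMEFs and 0.36 ± 0.182 in MEFs, SE); the floxed segment holds some of the exons only, and which of them the probes cover is not given in the sources used here. The spread of the arrays differed: the SD over all probe sets was 2.292 to 2.472 in iMEFs and 2.454 to 2.493 in MEFs. The highest iMEF value belonged to the Ubf fl/fl array at 24 h, the only iMEF array within the range of the MEFs. Its macrophage sum of 1380 was the lowest of the 20 arrays. In bulk RNA, fewer cells of a type and less RNA per cell cannot be told apart.

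The first comparison asked how the proteasome genes of iMEFs stood to those of MEFs, over all times and both genotypes, from the means of the 4 lines. Of the 44 genes, 9 were higher in iMEFs and 18 were lower (limma, adjusted p under 0.05). Over all 15272 genes 35.1% were higher and 31.2% lower, against 20.5% and 40.9% of the proteasome genes. Their median difference was -0.15, and that of all genes 0.12. Among the 18 lower genes the difference ranged in size between 0.29 and 2.40 on the log2 scale and exceeded 1 in 10 of them, whereas the 9 higher genes differed by 0.30 to 0.81. The 10 iMEF and 10 MEF arrays did not overlap for 14 of the 44 genes. Of the 44, 6 were higher and 8 lower in iMEFs without overlap. Of all 15272 genes, 11% were higher and 14.6% lower without overlap.

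**Figure D1:**
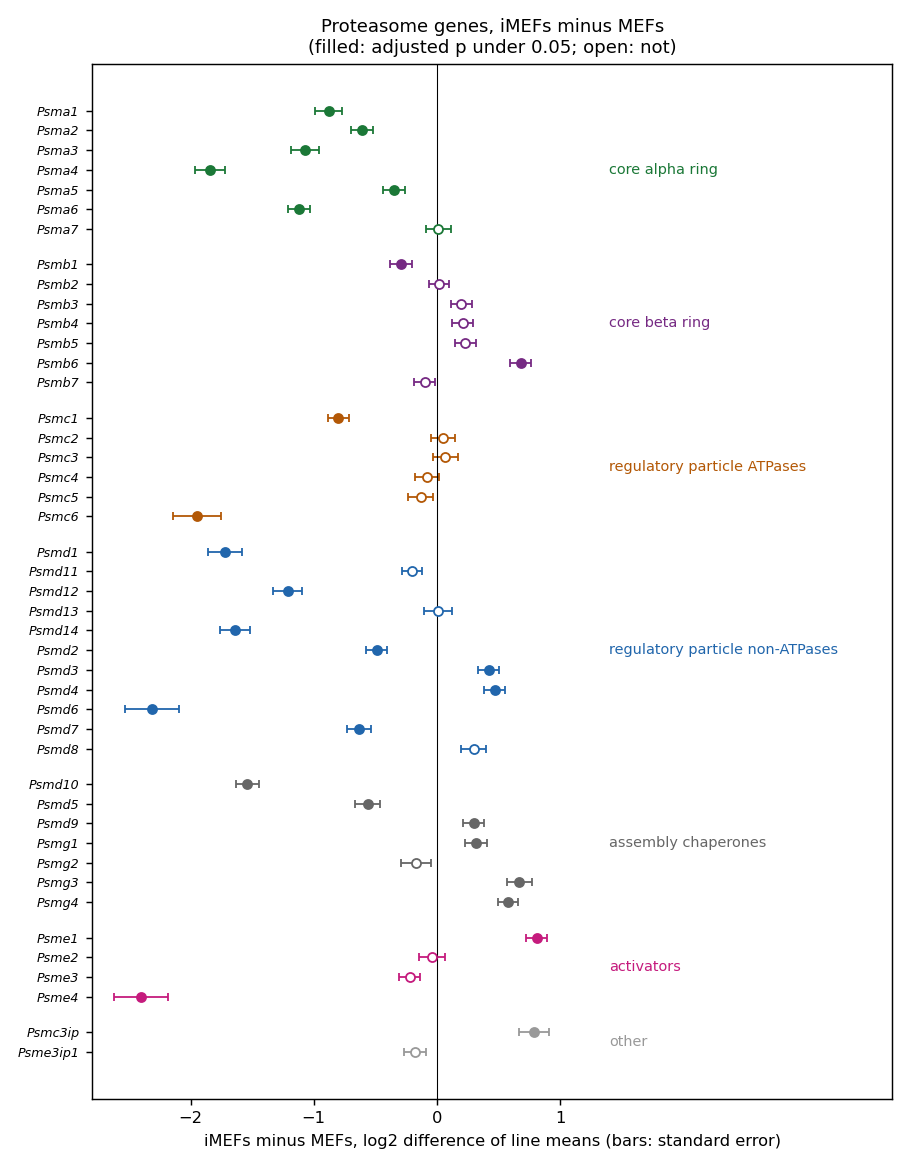
Difference between iMEFs and MEFs (horizontal axis, log2, mean of the 2 iMEF lines minus mean of the 2 MEF lines) for the 44 genes kept, ordered by their place in the proteasome. Points are estimates, bars are standard errors and filled points passed the test; 6 of 7 alpha ring genes lie left of 0 and filled, and the 7 beta ring genes lie between -0.29 and 0.68.

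Within the core the alpha and beta rings differed in their counts. Of the 7 alpha ring genes 6 were lower in iMEFs (Psma1 to Psma6, median over the ring -0.88), and Psma7 had a difference of 0.01. The share lower was 85.7%, against 31.2% of all genes. Psma4 showed the largest difference of the ring. Its lowest, median and highest signals were 7.95, 8.21 and 9.58 in iMEFs, against 9.64, 10.32 and 10.57 in MEFs, and the ranges did not overlap. The line means were 8.39 ± 0.151 in iMEFs and 10.23 ± 0.138 in MEFs (SD of line means, n = 2 lines each), a difference of -1.84 ± 0.123 (SE, adjusted p = 0.000871). Psma6 and Psma3 differed by -1.12 ± 0.0902 (SE, adjusted p = 0.00112) and -1.07 ± 0.111 (SE, adjusted p = 0.00177), also without overlap. Psma1 differed by -0.88 ± 0.112 (SE, adjusted p = 0.00296), and its ranges overlapped through the Ubf fl/fl iMEF array at 24 h, which read 10.25 against a highest value of 9.58 on the other 9 iMEF arrays and a lowest MEF value of 9.71.

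Of the 7 beta ring genes, 1 was higher in iMEFs, 1 was lower and the median was 0.20. Psmb6, which encodes the caspase-like site, was the higher one. It read, at 0, 24, 48, 72 and 96 h, 11.86, 11.69, 11.87, 12.09 and 11.69 in Ubf fl/fl iMEFs and 12.04, 11.91, 11.75, 11.83 and 12.04 in Ubf wt/wt iMEFs. The MEF signals were 11.27, 11.23, 11.11, 11.07 and 11.42 in Ubf fl/fl MEFs and 11.44, 11.24, 11.02, 11 and 11.13 in Ubf wt/wt MEFs. All 10 iMEF values lay above all 10 MEF values, and the difference was 0.68 ± 0.086 (SE, adjusted p = 0.00287). Psmb5, the chymotrypsin-like site, read 12.82, 12.63, 12.82, 12.73 and 12.44 in Ubf fl/fl iMEFs and 12.92, 12.85, 12.69, 12.70 and 12.63 in Ubf wt/wt iMEFs at the same times, and 12.47, 12.46, 12.42, 12.44 and 12.61 in Ubf fl/fl MEFs and 12.70, 12.59, 12.44, 12.35 and 12.47 in Ubf wt/wt MEFs. These ranges overlapped, and the difference of 0.23 ± 0.0846 (SE, adjusted p = 0.0646) did not pass. Psmb7, the trypsin-like site, read 10.62, 10.91, 10.73, 10.61 and 10.49 in Ubf fl/fl iMEFs and 10.78, 10.90, 10.78, 10.69 and 10.61 in Ubf wt/wt iMEFs. In MEFs it read 10.75, 10.74, 10.80, 10.85 and 10.83 in Ubf fl/fl MEFs and 10.77, 10.80, 10.78, 10.77 and 11.02 in Ubf wt/wt MEFs. Its values overlapped too, with a difference of -0.10 ± 0.0857 (SE, adjusted p = 0.329). The lower beta gene was Psmb1, with a difference of -0.29 ± 0.0916 (SE, adjusted p = 0.0411), which did not pass with each array centred on its median (-0.06, adjusted p = 0.608) or after quantile normalization (-0.16, adjusted p = 0.147).

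In the regulatory particle 2 of 6 ATPase genes were lower, Psmc6 and Psmc1, and none was higher. The share lower, 33.3%, was near the 31.2% of all genes. Psmc6 read, at 0, 24, 48, 72 and 96 h, 7.37, 8.81, 7.23, 7.68 and 8.03 in Ubf fl/fl iMEFs and 7.19, 6.87, 7.54, 7.33 and 7.60 in Ubf wt/wt iMEFs. In MEFs it read 9.67, 9.63, 9.92, 10.09 and 8.66 in Ubf fl/fl MEFs and 8.92, 9.39, 8.96, 9.87 and 9.98 in Ubf wt/wt MEFs. Its cell types overlapped through 2 arrays: the Ubf fl/fl iMEF array at 24 h was the highest of the iMEFs, and the Ubf fl/fl MEF array at 96 h was the lowest of the MEFs. The difference was -1.95 ± 0.193 (SE, adjusted p = 0.00163), and the other called gene, Psmc1, differed by -0.80 ± 0.0836 (SE, adjusted p = 0.00182). The 4 other ATPase genes, Psmc2 to Psmc5, differed by -0.13 to 0.07 and did not pass.

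Of the 11 non-ATPase genes 6 were lower in iMEFs (54.5%, against 31.2% of all genes) and 2 higher (18.2%, against 35.1%), with a median of -0.49. Psmd6, a subunit of the lid, gave the largest difference. It read 8.45, 9.93, 8.28, 7.84 and 8.30 in Ubf fl/fl iMEFs and 8.08, 8, 8.46, 7.84 and 7.27 in Ubf wt/wt iMEFs. MEFs read 10.63, 10.57, 10.61, 10.85 and 10.22 in Ubf fl/fl MEFs and 10.11, 10.53, 10.42, 10.65 and 10.93 in Ubf wt/wt MEFs. No iMEF value reached the lowest MEF value of 10.11, although the Ubf fl/fl iMEF array at 24 h, at 9.93, was the closest to it, and the difference was -2.31 ± 0.219 (SE, adjusted p = 0.00149), a ratio of 0.202. Psmd14, the deubiquitinase of the lid, had lowest, median and highest signals of 9.03, 9.65 and 10.82 in iMEFs, against 11.02, 11.41 and 11.64 in MEFs. It differed by -1.64 ± 0.12 (SE, adjusted p = 0.000981), without overlap. Psmd1, a scaffold of the base, had 9.15, 9.90 and 11.33 in iMEFs, against 11.27, 11.80 and 11.96 in MEFs. These ranges overlapped only between the Ubf fl/fl iMEF array at 24 h (11.33) and the Ubf fl/fl MEF array at 96 h (11.27). The difference was -1.72 ± 0.136 (SE, adjusted p = 0.00108). Psmd12 was lower by more than 1 as well, with -1.21 ± 0.118 (SE, adjusted p = 0.00158), and Psmd7 and Psmd2 differed by -0.63 and -0.49. The higher genes were Psmd4, the ubiquitin receptor of the base, with 0.47 ± 0.0842 (SE, adjusted p = 0.0079), and Psmd3, with 0.42 ± 0.0878 (SE, adjusted p = 0.0125).

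The chaperones moved in both directions, 57.1% of them higher and 28.6% lower in iMEFs, against 35.1% and 31.2% of all genes. Psmg1, Psmg3 and Psmg4, which serve the assembly of the core, and Psmd9, which serves the ATPase ring, were higher in iMEFs, by 0.32, 0.67, 0.58 and 0.30. Psmd10 and Psmd5, which also bind ATPases during assembly, were lower. Psmd10, also known as gankyrin, had lowest, median and highest signals of 7.61, 8.13 and 9.02 in iMEFs, against 9.12, 9.62 and 10.18 in MEFs. The ranges did not overlap, and the difference was -1.54 ± 0.0946 (SE, adjusted p = 0.000788), the smallest adjusted p of the 44 genes in this comparison. Psmd5 differed by -0.56 ± 0.102 (SE, adjusted p = 0.00828).

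The activators held both the largest fall and the largest rise. Psme4 encodes PA200, a single-chain nuclear cap of the core. It read, at 0, 24, 48, 72 and 96 h, 7.63, 9.22, 7.84, 7.53 and 7.92 in Ubf fl/fl iMEFs and 7.27, 7.29, 7.90, 7.34 and 7.34 in Ubf wt/wt iMEFs. MEFs read 10.17, 10.28, 10.64, 10.76 and 9.32 in Ubf fl/fl MEFs and 9.35, 10.05, 9.88, 10.55 and 10.33 in Ubf wt/wt MEFs. Every iMEF value lay below every MEF value, and the line means were 7.73 ± 0.427 in iMEFs and 10.13 ± 0.142 in MEFs (SD of line means, n = 2 lines each), a difference of -2.40 ± 0.22 (SE, adjusted p = 0.00137) and a ratio of 0.189. Psme1 and Psme2 encode the subunits of PA28 alpha-beta, a cap linked to antigen processing. Psme1 had 11.16, 11.49 and 12.10 in iMEFs, against 10.49, 10.83 and 11.08 in MEFs, without overlap, and a difference of 0.81 ± 0.0848 (SE, adjusted p = 0.0018). For Psme2 the same comparison gave -0.04 ± 0.108 (SE, adjusted p = 0.741). Psme3, whose product forms the nuclear PA28 gamma cap, read 11.20, 11.33, 11.10, 10.82 and 10.43 in Ubf fl/fl iMEFs and 11.27, 11.24, 11.15, 10.90 and 10.39 in Ubf wt/wt iMEFs. MEFs read 11.28, 11.35, 11.13, 11.16 and 11.31 in Ubf fl/fl MEFs and 11.32, 11.35, 11.12, 10.99 and 11.08 in Ubf wt/wt MEFs, overlapping with the iMEFs, and the difference was -0.22 ± 0.0844 (SE, adjusted p = 0.0657). Outside the complex, Psmc3ip was higher in iMEFs by 0.79 ± 0.12 (SE, adjusted p = 0.00485) and Psme3ip1 did not pass (-0.18 ± 0.0882 SE, adjusted p = 0.133).

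**Figure D2:**
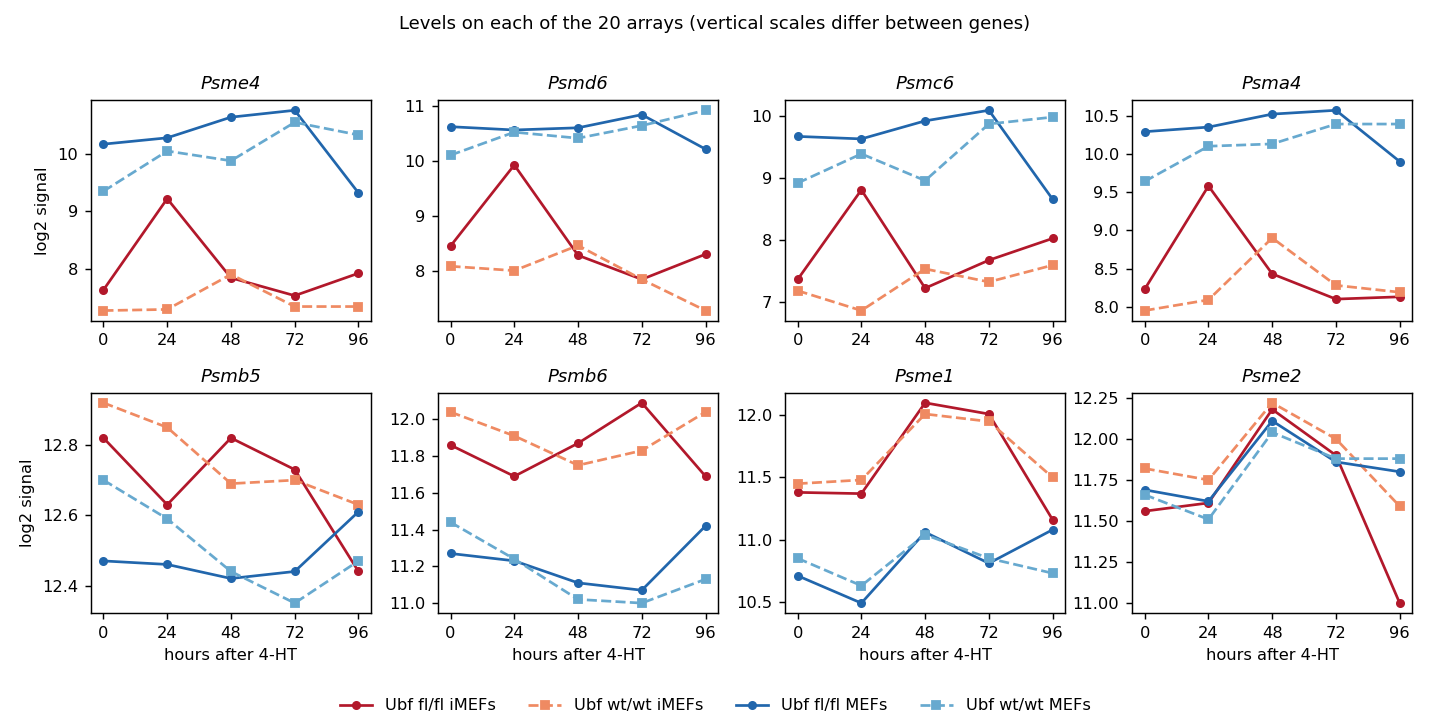
Signal (vertical axis, log2, with a separate scale for each gene) at 0 to 96 h after 4-HT (horizontal axis) for 8 genes, with 1 point per array and 1 line of points per cell line. Psme4, Psmd6, Psmc6 and Psma4 lie lower in iMEFs, in which they peak on the Ubf fl/fl array at 24 h, while Psmb6 and Psme1 lie higher in iMEFs and Psme1 and Psme2 peak at 48 h in iMEFs.

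The size of these differences depended on scaling and on time. With each array centred on its median, which moved the median of all genes to 0.35, 14 of the 44 genes were higher in iMEFs and 16 lower, and after quantile normalization 12 were higher and 16 lower; 25 of the 27 calls were kept under each. The alpha ring then had 5 of 7 genes lower (median -0.65 and -0.72), and the beta ring 4 and 3 of 7 higher and none lower. From the arrays at 0 and 24 h alone 1 gene was higher (Psme1) and 9 were lower, where 24.4% of all genes passed. From those at 48, 72 and 96 h 9 were higher and 19 lower. The shares of all genes that passed under the other scalings and from these late arrays are not given here. The Ubf fl/fl iMEF array at 24 h was the highest of the 10 iMEF arrays for 24 of the 44 genes and for 17 of the 18 lower ones, and for 0 of the 9 higher ones. Among all genes it was the highest for 25.5%, for 56.6% of those lower in iMEFs and for 5.01% of those higher. Without it 11 genes were higher and 20 lower, and all 27 calls were kept. The share of all genes that passed without that array is not given here, so these counts are not set against it. Over the 20 arrays the median signal of the alpha ring lay between 9.46 and 10.12 in iMEFs, the upper end on that array, and between 10.12 and 10.46 in MEFs. The part of array spread, and of the cells behind the macrophage signal of the MEFs, in the differences between cell types was not tested.

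**Figure D3:**
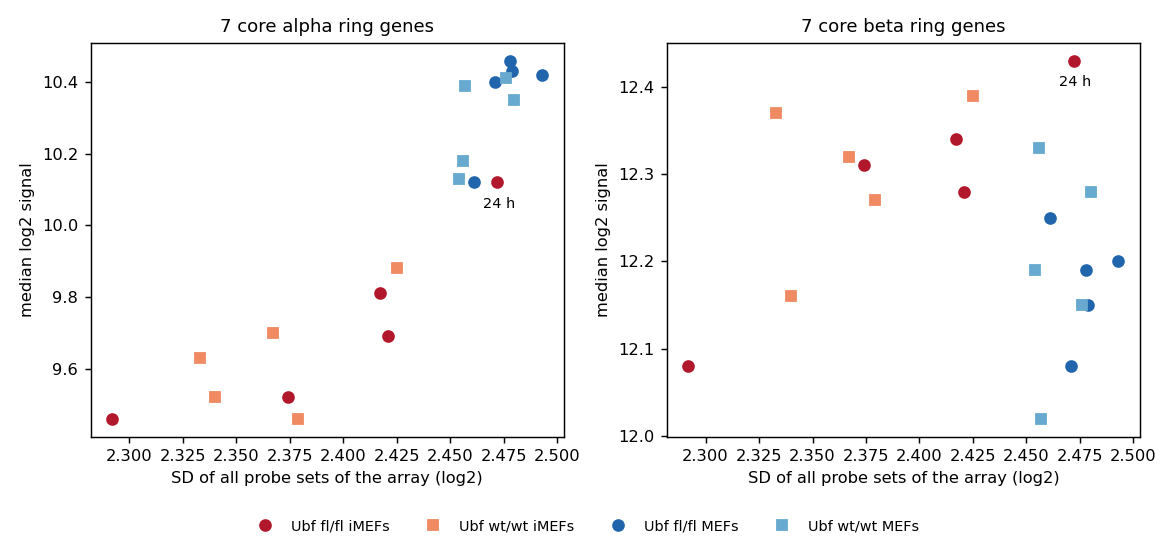
Median signal (vertical axis, log2) of the 7 alpha ring genes (left) and the 7 beta ring genes (right) on each of the 20 arrays against the SD over all probe sets of that array (horizontal axis, log2 units). The Ubf fl/fl iMEF array at 24 h is marked; at an SD of 2.472 its alpha ring median of 10.12 is the highest of the iMEFs.

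The second comparison set the late times (48, 72 and 96 h) against the early ones (0 and 24 h) within each cell type, both genotypes together. In iMEFs 1 of the 44 genes rose and 9 fell, against 3.76% and 6.49% of all genes. The median was -0.19 (all genes 0.00), 34 of the 44 estimates were negative, and the median change was -0.34 in the Ubf fl/fl line and -0.07 in the wt/wt line. The genes that fell were Psme3, Psmd5, Psmd13, Psmg1, Psma7, Psmc4, Psmc5, Psmc3 and Psmd11, and the gene that rose was Psme1. Of the alpha ring 1 of 7 genes passed, of the ATPases 3 of 6, of the non-ATPases 2 of 11 and of the chaperones 2 of 7. Among the 4 activators 1 fell and 1 rose. In the beta ring 0 of 7 passed, where 10.2% of all genes passed, so that count does not set the ring apart.

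Psmd5, the chaperone, fell most. It read 10.14, 10.19, 9.87, 9.03 and 8.49 in Ubf fl/fl iMEFs and 9.97, 9.61, 10.10, 9.67 and 8.92 in Ubf wt/wt iMEFs at 0 to 96 h, the lowest values at 96 h in both lines. The change was -0.63 ± 0.118 (SE, adjusted p = 0.00874), with -1.03 in the Ubf fl/fl line and -0.23 in the Ubf wt/wt line. Psme3, given above, changed by -0.46 ± 0.0746 (SE, adjusted p = 0.00468), with nearly equal changes of -0.48 in the Ubf fl/fl line and -0.44 in the Ubf wt/wt line. Psmd13 and Psma7 also moved alike in both lines, Psmd13 by -0.44 in the Ubf fl/fl line and -0.45 in the Ubf wt/wt line and Psma7 by -0.41 in the Ubf fl/fl line and -0.39 in the Ubf wt/wt line. Psmd11 changed by -0.65 in the Ubf fl/fl line and 0.04 in the Ubf wt/wt line, a difference of -0.69 ± 0.163 SE, adjusted p = 0.0713, which did not pass. Its highest iMEF value, 10.58, was again on the Ubf fl/fl array at 24 h. A further 4 genes had larger estimates than most of those called but did not pass, Psmd6 (-0.62 ± 0.24 SE, adjusted p = 0.137), Psmd1 (-0.53 ± 0.192 SE, adjusted p = 0.109), Psmd14 (-0.50 ± 0.169 SE, adjusted p = 0.0901) and Psmd12 (-0.48 ± 0.158 SE, adjusted p = 0.0835), and their changes lay mainly in the Ubf fl/fl line. For Psmd6 these were -1.05 in the Ubf fl/fl line and -0.18 in the Ubf wt/wt line.

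These iMEF calls depended on which arrays were used. Without the Ubf fl/fl array at 24 h the median was -0.09 and 0 of the 44 genes passed, with 1.61% of all genes called; Psmg1 then had -0.54 (adjusted p = 0.0616), Psme3 -0.42 (adjusted p = 0.0638) and Psme1 0.36 (adjusted p = 0.187). Without 48 h 17 genes fell and 0 rose, without 72 h 1 fell, and without 96 h 0 fell and 2 rose. The shares of all genes that passed in these fits are not given here, so the counts are not set against them. With each array centred on its median 7 of the 10 calls were kept, and Psme1 (0.37, adjusted p = 0.0568), Psmc3 and Psmc4 did not pass. After quantile normalization 4 were kept, those of Psmd5, Psme3, Psmd13 and Psme1. When 24 h was dropped in all lines, or moved to the late times, 0 of the 44 genes passed. Fibroblast markers moved as well in iMEFs, where 5 of 12 were lower at the late times (41.7%, against 6.49% of all genes) and 0 higher (against 3.76%). The part of such shifts in the proteasome changes was not tested.

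Psme1 and Psme2 were highest near 48 h. Psme1 read 11.38, 11.37, 12.10, 12.01 and 11.16 in Ubf fl/fl iMEFs and 11.45, 11.48, 12.01, 11.95 and 11.50 in Ubf wt/wt iMEFs at 0, 24, 48, 72 and 96 h. MEFs read 10.71, 10.49, 11.06, 10.81 and 11.08 in Ubf fl/fl MEFs and 10.85, 10.63, 11.04, 10.85 and 10.73 in Ubf wt/wt MEFs. The 48 h array was the highest of its line in 3 of the 4 lines, and in the Ubf fl/fl MEFs it read 11.06 against 11.08 at 96 h. Psme2 read 11.56, 11.61, 12.18, 11.90 and 11 in Ubf fl/fl iMEFs and 11.82, 11.75, 12.22, 12 and 11.59 in Ubf wt/wt iMEFs. In MEFs it read 11.69, 11.62, 12.11, 11.86 and 11.80 in Ubf fl/fl MEFs and 11.66, 11.51, 12.04, 11.88 and 11.88 in Ubf wt/wt MEFs. Its 48 h array was the highest in all 4 lines, and in iMEFs the 96 h arrays were the lowest. Psme1 changed by 0.37 ± 0.093 (SE, adjusted p = 0.0303) in iMEFs and 0.26 ± 0.093 (SE, adjusted p = 0.0856) in MEFs, and Psme2 by 0.13 ± 0.0923 (SE, adjusted p = 0.44) in iMEFs and 0.31 ± 0.0923 (SE, adjusted p = 0.0414) in MEFs. The difference of these changes between iMEFs and MEFs did not pass for either gene (adjusted p = 0.699 and 0.472). Psme2 shares sequence with the copy Psme2b: a probe set assigned to both symbols gave late minus early values of 0.08 in iMEFs and 0.44 in MEFs, so the 2 copies may not be separated. The immunoproteasome subunits Psmb8, Psmb9 and Psmb10, which replace catalytic beta subunits, were higher at the late times in iMEFs (3 of 3, against 3.76% of all genes) and in MEFs (2 of 3, against 7.48%), with medians of 1.45 and 0.73. Psmb10 read 9.28, 9.36, 11.58, 11.07 and 9.04 in Ubf fl/fl iMEFs and 10.03, 10.21, 11.23, 10.88 and 10.12 in Ubf wt/wt iMEFs, and its 48 h array was the highest in all 4 lines. Psmb8 was also highest at 48 h in both iMEF lines, and Psmb9 at 72 h.

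In MEFs at the late times 1 of the 44 genes was higher and 4 were lower than at the early ones, shares of 2.27% and 9.09% against 7.48% and 9.3% of all genes. The median was -0.06. The gene that rose was Psme2, and those that fell were Psmg1, Psmc3ip, Psmd3 and Psmc4. Psmg1, which serves the first steps of core assembly, read 9.66, 9.77, 9.07, 8.93 and 9.17 in Ubf fl/fl MEFs and 9.43, 9.40, 9.01, 9.24 and 8.90 in Ubf wt/wt MEFs at 0 to 96 h. Late values lay below early values in both lines, and the change was -0.51 ± 0.101 (SE, adjusted p = 0.00551). In iMEFs it read 10.10, 9.71, 9.55, 9.33 and 9.28 in Ubf fl/fl iMEFs and 9.74, 9.80, 9.67, 9.36 and 9.29 in Ubf wt/wt iMEFs, with a change of -0.43 ± 0.101 (SE, adjusted p = 0.0237). Psmc3ip read 6.94, 7.36, 6.75, 6.60 and 6.64 in Ubf fl/fl MEFs and 7.18, 7.22, 6.49, 6.82 and 6.84 in Ubf wt/wt MEFs. All late arrays lay below all early arrays, and the change was -0.48 ± 0.103 (SE, adjusted p = 0.0088). In iMEFs Psmc3ip read 7.69, 7.87, 7.70, 7.80 and 7.98 in Ubf fl/fl iMEFs and 7.66, 7.45, 7.45, 7.47 and 7.64 in Ubf wt/wt iMEFs and changed by 0.01 ± 0.103 (SE, adjusted p = 0.981).

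Psmd3, a subunit of the lid, read 10.30, 10.48, 10.21, 10.07 and 10.36 in Ubf fl/fl MEFs and 10.56, 10.40, 10.07, 9.89 and 10.08 in Ubf wt/wt MEFs. The 72 h value of the wt/wt line was the lowest, and the change was -0.32 ± 0.0832 (SE, adjusted p = 0.023). In iMEFs it read 10.73, 10.85, 10.61, 10.63 and 10.32 in Ubf fl/fl iMEFs and 10.85, 10.83, 10.61, 10.63 and 10.55 in Ubf wt/wt iMEFs. Psmd10 had the largest positive estimate of the MEFs but did not pass (0.45 ± 0.149 SE, adjusted p = 0.0621). It passed with each array centred on its median (0.45, adjusted p = 0.0308), after quantile normalization (0.48, adjusted p = 0.0283), without the Ubf fl/fl iMEF array at 24 h (0.45, adjusted p = 0.0492), without 96 h, without the Ubf fl/fl MEF array at 96 h and with array spread as a covariate. Psmd10 read 9.62, 9.61, 9.96, 10.18 and 9.52 in Ubf fl/fl MEFs and 9.12, 9.39, 9.59, 9.96 and 10.12 in Ubf wt/wt MEFs, the 72 h or 96 h array being the highest of each line. In iMEFs it read 8.34, 9.02, 8.21, 7.82 and 7.61 in Ubf fl/fl iMEFs and 8.05, 7.99, 8.57, 8.30 and 7.81 in Ubf wt/wt iMEFs, with a change of -0.30 ± 0.149 (SE, adjusted p = 0.252). The difference between these changes, -0.75, had the smallest adjusted p of the 44 genes in the test of iMEFs against MEFs (0.0564), in which 0 of the 44 genes passed (7 at an unadjusted p under 0.05). Of all genes 3.73% passed that test upward and 3.59% downward, and 3365 of the 15272 had an unadjusted p under 0.05. The MEF calls fell to 2 without 48 h and 1 without 72 h, and 13 passed without 96 h. These counts, too, are given without the share of all genes that passed. When 24 h was dropped, or moved to the late times, 0 passed. Psme2 and Psmc4 did not pass with each array centred on its median (adjusted p = 0.0566 and 0.0978) or without the Ubf fl/fl iMEF array at 24 h (adjusted p = 0.0525 and 0.0524).

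**Figure D4:**
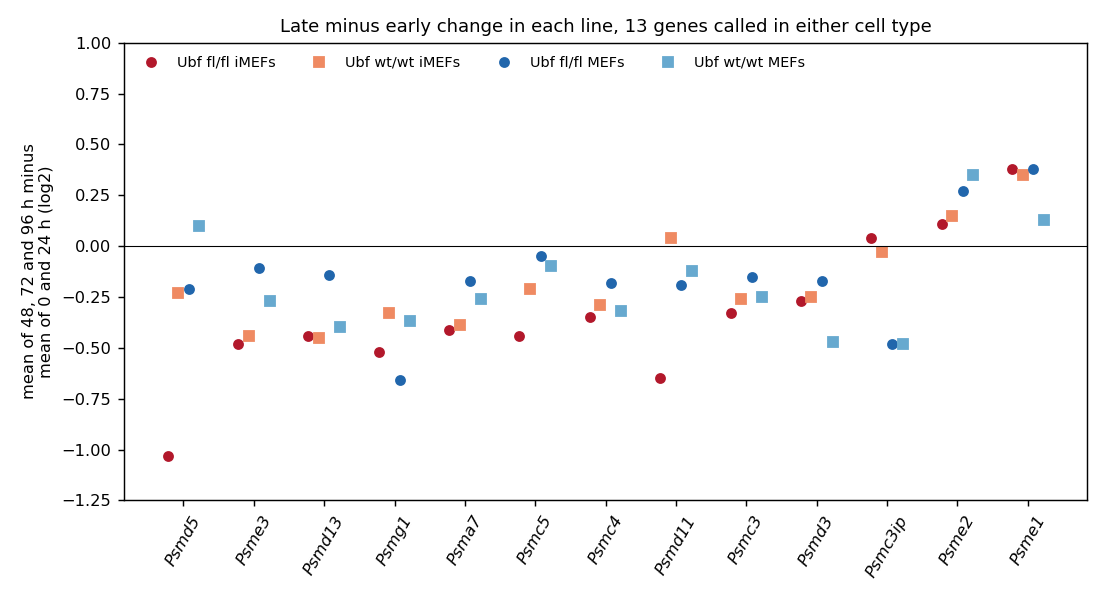
Change between the mean of the late arrays (48, 72 and 96 h) and the mean of the early arrays (0 and 24 h) in each line (vertical axis, log2) for the 13 genes called in iMEFs or MEFs (horizontal axis, ordered by the iMEF estimate). Psme3 and Psmd13 fell by 0.44 or more in both iMEF lines, whereas Psmd5 and Psmd11 fell mainly in the Ubf fl/fl line, by 1.03 and 0.65.

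The third comparison asked whether loss of UBF changed these genes: the late minus early change of the Ubf fl/fl line less that of the wt/wt line, in each cell type. The early times include 24 h. By then the study reports full excision in Ubf fl/fl iMEFs and less UBF protein, with ribosomal RNA synthesis little changed. The early mean of that line was therefore not wholly from before excision. In iMEFs 0 of the 44 genes passed, where 0.183% of all genes passed upward and 0.0393% downward. At an unadjusted p under 0.05 were 12 of the 44 genes and 3370 of all 15272. The median was -0.17, with 37 of 44 estimates negative, against -0.04 over all genes. With each array centred on its median these were 0.00 for the 44 genes and 0.14 for all genes. In MEFs 0 passed, as did 0% of all genes in either direction, with a median of -0.02 against 0.06. Unadjusted p was under 0.05 there for 0 of the 44 genes and 1052 of all 15272. The effects in the 2 cell types differed for 0 of the 44 genes and for 0% of all genes in either direction. For this difference 2 of the 44 genes and 1136 of all 15272 had an unadjusted p under 0.05.

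The largest iMEF estimates belonged to Psma4 (-1.11 ± 0.349 SE, adjusted p = 0.116), Psmd10 (-1.01 ± 0.298 SE, adjusted p = 0.102), Psmd1 (-0.92 ± 0.384 SE, adjusted p = 0.197) and Psme4 (-0.91 ± 0.52 SE, adjusted p = 0.325), and the lowest adjusted p to Psmd11 (-0.69 ± 0.163 SE, adjusted p = 0.0713). Psma4 read 8.23, 9.58, 8.43, 8.10 and 8.13 in Ubf fl/fl iMEFs and 7.95, 8.09, 8.90, 8.28 and 8.19 in Ubf wt/wt iMEFs at 0 to 96 h. Its 24 h array of the Ubf fl/fl line stood above the other 9 iMEF arrays, the highest of which was 8.90. Psmd1 read 10.23, 11.33, 9.90, 9.57 and 9.89 in Ubf fl/fl iMEFs and 9.81, 9.98, 10.40, 9.90 and 9.15 in Ubf wt/wt iMEFs, again with the highest value on that array. Relative to the 0 h arrays, the Ubf fl/fl minus wt/wt difference of Psma4 was 1.21 at 24 h, -0.74 at 48 h, -0.45 at 72 h and -0.33 at 96 h, and that of Psme4 was 1.57, -0.42, -0.17 and 0.22. Without the 24 h array the late effect was -0.51 for Psma4 (adjusted p = 0.851), -0.63 for Psmd10, -0.46 for Psmd1 and -0.12 for Psme4, and the median over the 44 genes was -0.06, equal to that of all genes. Over the 44 genes, the difference relative to 0 h had a median of 0.24 at 24 h, -0.04 at 48 h, -0.03 at 72 h and -0.12 at 96 h. Without 96 h, 8 of the 44 genes were lower in the Ubf fl/fl line and 1 was higher, where 10.9% of all genes passed, and without the 96 h array of the Ubf fl/fl MEFs, which enters through the shared variance, 4 were lower, where 6.53% of all genes passed.

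In MEFs the 4 largest estimates were those of Psmc6 (-0.55 ± 0.619 SE, adjusted p = 0.785), Psma1 (-0.55 ± 0.305 SE, adjusted p = 0.718), Psme4 (-0.54 ± 0.52 SE, adjusted p = 0.758) and Psmd1 (-0.47 ± 0.384 SE, adjusted p = 0.745). All 4 read lowest of the 5 Ubf fl/fl MEF arrays at 96 h. For Psma1 the MEF signals were 10.56, 10.64, 10.43, 10.40 and 9.71 in Ubf fl/fl MEFs and 10.18, 10.35, 10.21, 10.41 and 10.55 in Ubf wt/wt MEFs. For Psmd1 they were 11.79, 11.96, 11.81, 11.91 and 11.27 in Ubf fl/fl MEFs and 11.39, 11.75, 11.72, 11.89 and 11.89 in Ubf wt/wt MEFs. Relative to 0 h, the Ubf fl/fl minus wt/wt difference of Psmc6 was -0.51 at 24 h, 0.20 at 48 h, -0.53 at 72 h and -2.08 at 96 h. Without the 96 h array of the Ubf fl/fl MEFs the late effect of Psmc6 was 0.09 and the median over the 44 genes 0.04. Macrophage markers summed to 29700 on that array, the highest of the 20; their part in its readings was not tested.

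**Figure D5:**
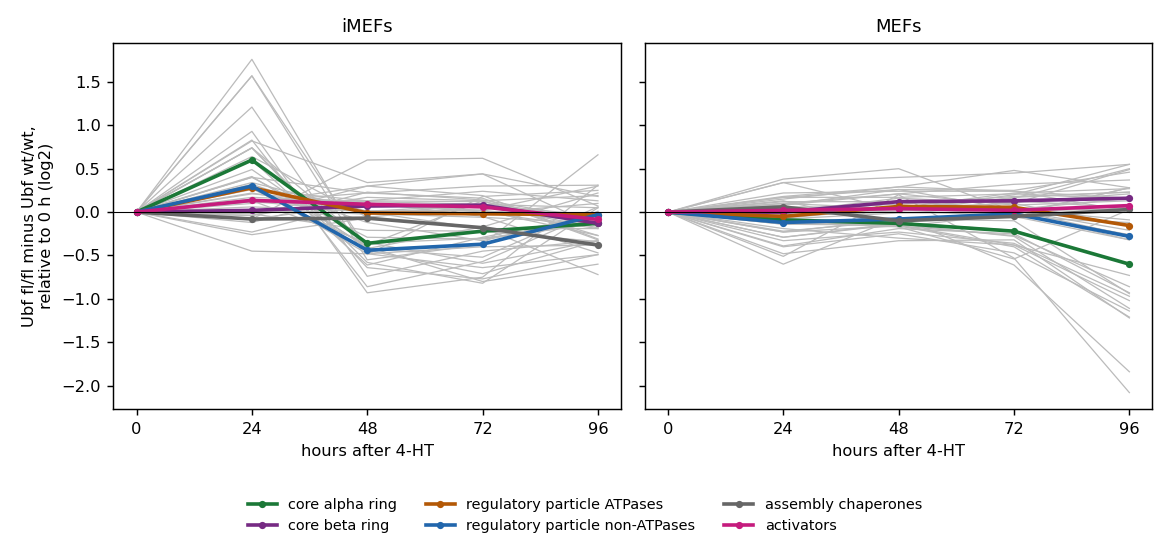
Ubf fl/fl minus Ubf wt/wt difference relative to the 0 h arrays (vertical axis, log2) against time after 4-HT (horizontal axis) in iMEFs (left) and MEFs (right). Grey lines are the 44 genes and coloured lines are medians by place in the proteasome; the alpha ring median is 0.60 at 24 h in iMEFs and -0.60 at 96 h in MEFs, the times of the 2 arrays described above.

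Genes that serve the proteasome without being among its named subunits were read from a list of 27, all measured. In iMEFs 18 of the 27 were lower than in MEFs and 4 higher, against the 31.2% and 35.1% of all genes, and the median was -0.55. The largest falls were those of Uba6 (-2.56 ± 0.184 SE, adjusted p = 0.000951), an activating enzyme for ubiquitin, Ecpas (-1.58 ± 0.233 SE, adjusted p = 0.00441), a proteasome adaptor, and Ngly1 (-1.35 ± 0.113 SE, adjusted p = 0.00117), the glycanase that processes Nfe2l1. Ufd1, a cofactor of the Vcp segregase, and the deubiquitinases Uchl5 and Usp14 differed by -1.19, -1.07 and -1.05. Nfe2l1 itself, the factor that drives proteasome genes when proteasome activity is low, had lowest, median and highest signals of 10.79, 11.03 and 11.36 in iMEFs, against 11.27, 11.52 and 11.76 in MEFs. It differed by -0.50 ± 0.0895 (SE, adjusted p = 0.00811). The 4 higher genes were Ubqln4, Bag6, Stub1 and Psmf1. Between late and early times Ubqln2, Vcp and Ufd1 were lower in iMEFs, with changes of -0.61, -0.48 and -0.45 (3 of 27 or 11.1%, against 6.49% of all genes). In MEFs Ubqln2, Uchl5, Ubqln4 and Stub1 were lower (4 of 27 or 14.8%, against 9.3%) and Zfand2a was higher (1 of 27 or 3.7%, against 7.48%). The change of Ufd1 was the only 1 of the 27 to pass the test of a difference between iMEFs and MEFs (adjusted p = 0.026), a share of 3.7% against 3.59% of all genes. No gene of the list passed for the late effect of Ubf loss in either cell type. At an unadjusted p under 0.05 were 9 of the 27 in iMEFs and 0 in MEFs, against 3370 and 1052 of all 15272 genes.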

How the data were processed

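The authors hybridised total RNA of the 20 cultures to Affymetrix whole-transcript mouse arrays and deposited RMA log2 values per probe set, made with Affymetrix Power Tools 1.14.4; the 35556 probe sets include 21789 with a single symbol in the platform annotation supplied with the data, and 12146 were not listed there. The study's methods name Mouse Gene 2.0 ST arrays, whereas the annotation that matched the probe sets is that of an earlier Gene ST design. Values are relative to their array.

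The members and lists were chosen with earlier results of these data known. Genes over the 40th percentile of the array on at least 2 arrays were kept (15272). In R 4.3.3, limma 3.58.1 was fitted to the 20 arrays with terms for line, time within cell type and genotype at late times within cell type (6 residual degrees of freedom), and to the 4 line means for iMEFs minus MEFs (2 residual degrees of freedom). P-values were adjusted by Benjamini-Hochberg over all genes kept, at 0.05. With 1 array per line and time, times stand in for replicates of the Ubf fl/fl minus wt/wt difference. Each time has its own term within a cell type, so movement over time shared by both lines does not enter the residual error. That error is the scatter of the genotype difference from time to time, once its late effect is fitted. P-values for late minus early times therefore leave out shared scatter between times, such as the fall of Psme1 in iMEFs from 72 to 96 h. P-values for iMEFs minus MEFs measure the spread between lines. The number of arrays limits the precision. The fits were also run on simulated data, with no outcome given here. Noise there was drawn independently for each array or line mean. Such data cannot show how scatter shared by both lines at a time affects the late minus early p-values. Genes named with all their values were the catalytic beta subunits, the activators, Psma8, Psmb11, Psmc3ip and the 4 largest estimates of each comparison; others described by name passed a test or are named for their place in the complex.

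Alternatives changed the scaling, the filter, the probe sets of a gene, the variance model, the times and the lines used. Chosen after seeing the data were the fits without the Ubf fl/fl iMEF array at 24 h, without the Ubf fl/fl MEF array at 96 h, and with array spread as a covariate. Promoter windows are RefSeq's on GRCm38.p6, matched by gene ID for 38 of the 46 genes.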

Additional observations from a re-analysis of the deposited data

How the results depend on the processing

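Each genotype and cell type is 1 line and each time 1 array, so neither culture-to-culture spread nor a line's own history was measured, and the log2 values carry no count or depth, so no counting error is given. A late effect is the mean of 3 arrays less that of 2 in each line. Of the 98 alternative medians 90 moved by less than the median standard error of a gene, and of the 98 alternative counts 76 stayed within 1.5 times. The counts below are given without the share of all genes that passed under the same setting.

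For iMEFs minus MEFs the median over the 44 genes was 0.08 with each array centred on its median, 0.00 after quantile normalization and -0.05 from the line means over 0 and 24 h, which called 10 genes. Leaving out each line in turn gave medians of -0.18 to -0.09 and 19 to 29 calls. For late minus early times in iMEFs the calls numbered 4 after quantile normalization, 0 without the 24 h arrays, 0 with 24 h counted as late (median -0.03), 17 without 48 h, 1 without 72 h, 2 without 96 h, 4 with iMEFs fitted alone, 0 without the Ubf fl/fl iMEF array at 24 h and 2 with array spread as a covariate (median -0.09). For MEFs they numbered 0 without the 24 h arrays, 0 with 24 h counted as late, 2 without 48 h, 1 without 72 h, 13 without 96 h and 3 with MEFs fitted alone. The difference of these changes between cell types was called for 2 genes with centred arrays, 1 after quantile normalization, 3 without 48 h and 1 without 96 h, where its median was -0.02. The late effect of Ubf loss in iMEFs was called for 9 genes without 96 h and 4 without the Ubf fl/fl MEF array at 96 h, and its median was 0.02 after quantile normalization and 0.05 with array spread as a covariate. Estimates that turned sign were those of Psme4 in iMEFs (0.30 with 24 h counted as late and 0.96 with array spread as a covariate), Psma4 in iMEFs (0.20 with array spread as a covariate) and Psmc6 in MEFs (0.09 without 96 h and 0.09 without the Ubf fl/fl MEF array at 96 h). For results other than those that leave out arrays, the cause was not tested. Among 743 estimates for single genes under these settings, 592 kept their direction and side of the threshold, 135 no longer passed, 11 passed anew and 5 turned sign. The fits match the Ubf fl/fl and wt/wt arrays of a cell type by time.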

Other observations

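Of the 46 genes 5 were represented by more than 1 probe set. The 3 probe sets of Psma3 gave iMEFs minus MEFs differences of -1.11, -1.07 and -1.03, the 2 of Psmc1 gave -1.10 and -0.80, the 2 of Psmd2 -0.60 and -0.49, the 2 of Psma5 -0.47 and -0.35, and the 2 of Psmb3 0.15 and 0.20. In each of the 5 genes the probe sets had the same sign.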
